A study of Mus musculus with 2 samples.

Results

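The 40 gene symbols described here cover glucose and lactate transport, glycolysis, the entry of pyruvate into mitochondria and the pentose phosphate pathway. They were chosen by name, with earlier results of these data known. Of the 23284 genes listed in each library, 39 were members, because pyruvate kinase M appeared only under its older symbol, Pkm2. At least 1 FPKM in at least 1 library was listed for 37 of the 39 members and for 12066 of all genes. FPKM counts sequenced fragments relative to transcript length and to library size, so levels of genes of different length can be set side by side.

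Glycolysis cuts glucose into pyruvate, first in preparatory steps that spend ATP and then in payoff steps that return ATP and NADH. Lactate dehydrogenase turns pyruvate into lactate, whereas pyruvate dehydrogenase feeds it to the TCA cycle and is switched off by pyruvate dehydrogenase kinases. The pentose phosphate pathway leaves glycolysis at its start and supplies NADPH and ribose for nucleotides. Adult HSCs are known for their reliance on glycolysis, with pyruvate dehydrogenase held in check by its kinases, and FL HSCs belong to a pool that is dividing and expanding.

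The libraries were made from LSK CD48- cells of the FL of E14.5 mouse fetuses, sorted as cells without lineage markers or CD48 that carry Sca-1 and c-Kit, a fraction rich in HSCs. Each genotype, WT and ESAM-null, gave 1 library. In the ESAM-null fetuses, a conventional knockout deletes Esam, a surface adhesion molecule of HSCs and endothelial cells, in every cell. No agent is named for either group, but the sample labels describe culture of the sorted cells in methylcellulose, whereas the study's text describes sorted cells, so which of these the RNA came from cannot be told here. The sources used here do not give how many fetuses and cells went into a library. The conventional knockout also lacks Esam in endothelial and other cells of the FL, so effects within HSCs and effects of the other cells cannot be told apart.

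Esam itself was listed at 117.6 FPKM in WT against 12.1 FPKM in ESAM-null, a 9.69-fold difference. Behind the values stood some 9592624 (WT) and 11722458 (ESAM-null) reads, as far as the steps between the lowest values allow them to be estimated. All 8 markers of LSK and stem cells were present in both libraries, and none differed 2-fold. Markers of maturing erythroid cells summed to 399.9 FPKM in WT against 73.8 FPKM in ESAM-null, with 5 of 8 at least 2-fold lower and 1 higher. With 1 library per genotype there is no replicate, no test and no p-value, and every difference below is one between these 2 libraries. The 95% intervals given with ratios were computed from approximate read numbers and cover counting error only. Fewer cells of a type and less RNA per cell cannot be told apart in such samples.

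Few members differed by 2-fold. Of the 37 members past the filter, 3 (Pklr, Pfkfb2 and Pfkfb3) had levels at least 2-fold lower in ESAM-null, whereas 12.8% of all genes were, and 2 (Eno1 and Slc16a3) were at least 2-fold higher, against 7.42% of all genes. At 1.5-fold, Eno3 joined the lower members to make 4, where all genes gave 21.8%. Pfkp, Gapdh and Pgk1 joined the higher members to make 5, where all genes gave 17.4%. The other 28 members lay within 1.5-fold. At this filter, the members' shares lay below these backgrounds in both directions. For the higher members this depended on the filter. With at least 5 FPKM in a library, 2 of 32 members were at least 2-fold higher, where all genes gave 3.75%. At 1.5-fold, 5 of these 32 were higher, where all genes gave 14.8%, so neither share lay below the background. When both libraries were rescaled to an equal total, which moves every log2 ratio by -0.28, 8 members were at least 1.5-fold lower, where all genes gave 32.7%, and 2 (Eno1 and Slc16a3) at least 1.5-fold higher, where all genes gave 9.48%. The median log2 ratio of ESAM-null to WT was 0.09 over the members and -0.00024 over all genes. The summed FPKM of the members was 5838 in WT and 7813 in ESAM-null, a ratio of 1.34, beside 1.21 for all genes.

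**Figure D1:**
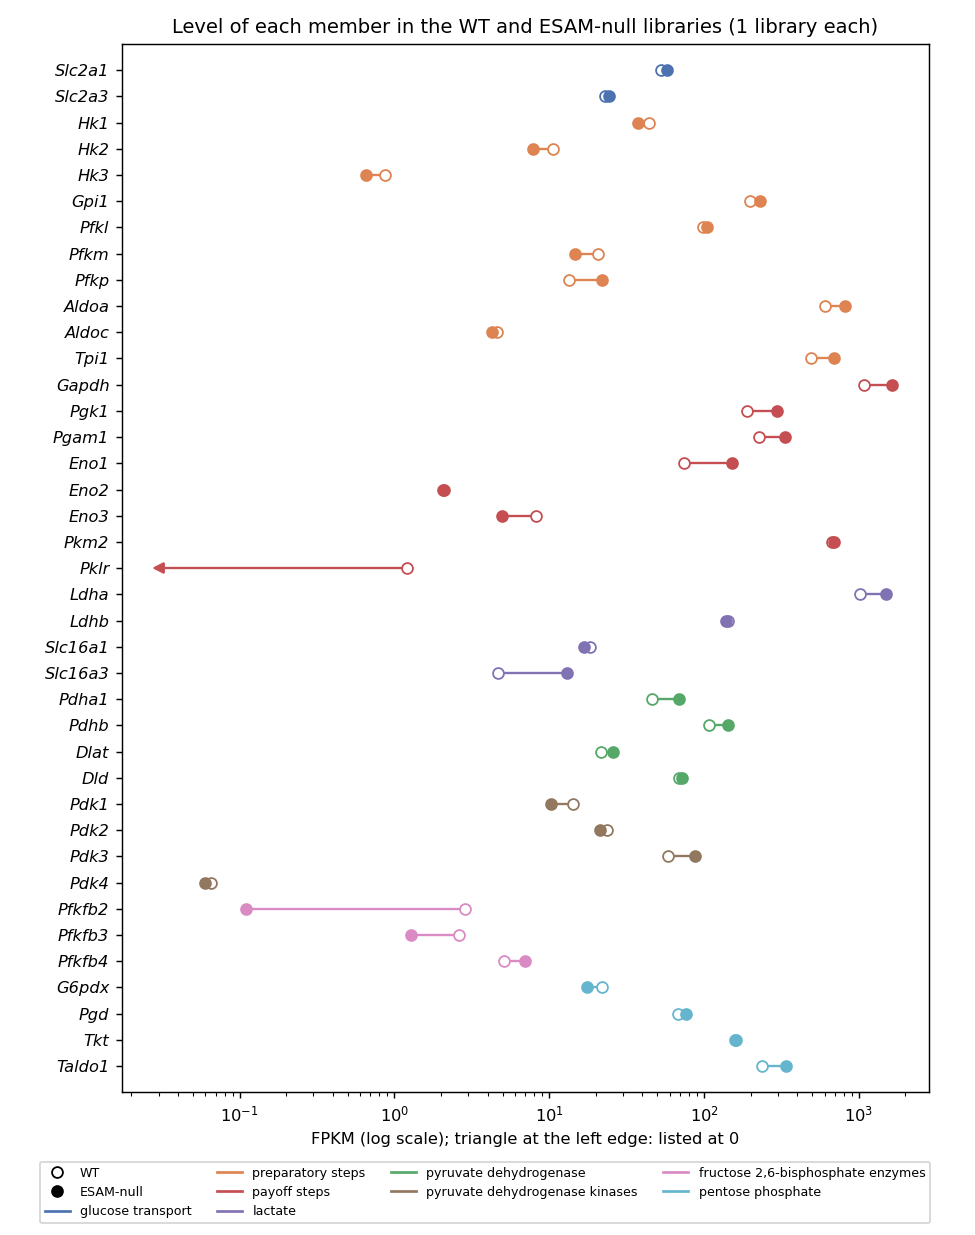
FPKM of the 39 members on a log axis in the order of the pathway, with open circles for WT, filled circles for ESAM-null (1 library each) and colours for roles. Gapdh and Ldha stand above 1000 FPKM in both libraries, the pairs of most members lie close together, and Pklr ends in a triangle because it was listed at 0 in ESAM-null.

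Both glucose transporters were at nearly equal levels. Slc2a1 (GLUT1), the carrier of basal glucose uptake, was listed at 52.4 in the WT and 57.4 FPKM in the ESAM-null library, a ratio of 1.10 (counting interval 1.02 to 1.17). Slc2a3 (GLUT3), a carrier of high affinity, was listed at 23.0 and 24.4 FPKM, and its interval of 0.968 to 1.17 includes no difference. Slc2a1 held 69.5% of their summed FPKM in WT and 70.1% in ESAM-null.

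The hexokinases, which trap glucose as its phosphate, were lower together by a small amount. Their summed FPKM was 55.5 in WT and 46.1 in ESAM-null, a ratio of 0.831. Hk1, the main form of most cells and of red cells, went from 44.1 to 37.6 FPKM, and Hk2, the inducible form, from 10.5 to 7.88 FPKM. Hk1 held 79.5% of the family in WT and 81.5% in ESAM-null. Hk3, a form of myeloid cells, was listed at 0.864 and 0.653 FPKM and did not pass the filter. Gpi1, which turns glucose phosphate into fructose phosphate, was listed at 199 FPKM in WT against 229 FPKM in ESAM-null.

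Phosphofructokinase, the committed step of glycolysis, kept its total but differed in its makeup. The 3 isozymes summed to 133 in the WT and 141 FPKM in the ESAM-null library. Pfkl, the liver form, made up 74.5% of this in WT and 73.8% in ESAM-null, at 99.2 and 104 FPKM. Pfkp, the platelet form (chr13:6579874-6649060 in GRCm38, the build of all positions here, by RefSeq), was listed at 13.4 FPKM in WT against 22.1 FPKM in ESAM-null, 1.65-fold higher (1.46 to 1.87), on about 402 and 723 reads. Pfkm, the muscle form, went the other way, from 20.5 to 14.7 FPKM, a ratio of 0.717 (0.628 to 0.820). Pfkm was thus above Pfkp in WT and below it in ESAM-null. The ratio of Pfkp to Pfkm was 0.651 in WT and 1.4998 in ESAM-null, a 2.31-fold difference (1.93 to 2.76). Because both isozymes are read in the same library, this value does not depend on how the libraries were scaled. Of the stretches of 75 bases, the read length, in Pfkp transcripts, 15.7% also lie in transcripts of its neighbour Pitrm1, which was listed at 25.8 in the WT and 25.3 FPKM in the ESAM-null library.

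Aldolase and triose phosphate isomerase, which split the sugar and balance its products, were among the abundant members. Aldoa was listed at 606 FPKM in WT against 815 FPKM in ESAM-null, a ratio of 1.35, and held 99.2% of the aldolase FPKM in WT and 99.5% in ESAM-null. Aldoc, the brain form, was at 4.61 and 4.24 FPKM. Tpi1 was listed at 489 in the WT and 696 FPKM in the ESAM-null library, a ratio of 1.42 (1.38 to 1.47). Both ratios were under 1.5.

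The payoff steps held 3 of the 5 members that were at least 1.5-fold higher. Gapdh, which makes the NADH of glycolysis (chr6:125161852-125166467), was listed at 1085 FPKM in WT against 1634 FPKM in ESAM-null, 1.51-fold higher (1.47 to 1.54). Pgk1, the first step that returns ATP (chrX:106187100-106203699), went from 190 to 296 FPKM, 1.56-fold higher (1.49 to 1.63). Pgam1, the mutase that follows, went from 226 to 334 FPKM, a ratio of 1.48. Eno1, the enolase of most cells (chr4:150236708-150248879), was listed at 73.9 FPKM in WT against 151 FPKM in ESAM-null, 2.04-fold higher (1.91 to 2.18). The 4 consecutive steps from Gapdh to Eno1 thus had ratios of 1.48 to 2.04. Pyruvate kinase, the last step and the other one that returns ATP, did not share in this, since Pkm2 was at 666 FPKM in WT against 692 FPKM in ESAM-null, a ratio of 1.04 (1.01 to 1.06). Ratios just under this range were not confined to the run, since Tpi1 was at 1.42 and Ldha at 1.46. Relative to the median of genes of like level and length, Tpi1 (0.26) and Ldha (0.30) exceeded Gapdh (0.24) on the log2 scale. Of all genes with a mean of at least 100 FPKM, 23.7% were at least 1.5-fold higher.

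The 4 members of this run were also those that share the most sequence with other genes. Of the 75-base stretches of Gapdh transcripts, 76.1% also occur in annotated transcripts of 121 other genes. The share was 67.5% for Pgk1, 65.4% for Eno1 and 40.6% for Pgam1, and 23.5% at most for the other 33 members past the filter. The sources used here do not say how the authors assigned reads that fit several places, so the values of these 4 genes are less certain than their read numbers imply. The rows that share most of these stretches had ratios like those of Eno1 and Gapdh, while rows that share less varied in both directions. Gm5506, the row of Eno1b, which shares 64.2% of the Eno1 stretches, was at 0.682 in the WT and 1.38 FPKM in the ESAM-null library, and Gm12070, which shares 60.0% of the Gapdh stretches, was at 6.85 and 10.2 FPKM. Among the 10 members with a mean of at least 100 FPKM and at most 30% of their stretches shared, the median log2 ratio was 0.31 and the highest ratio was 1.46, so none reached 1.5-fold. The part of shared reads in the higher values was not tested.

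Pgk1 and Pgam1 are shown with the 250 bases before their annotated starts because they stand side by side in this run and both hold the motif ACGTG, the core of the elements bound by hypoxia-inducible factors. Gapdh and Eno1, the other genes of the run, hold no match on either strand before any of their listed starts. Capitals mark the motif on either strand (ACGTG or its reverse complement CACGT) and, where it lies inside the E box CACGTG bound by Myc and related factors, the E box, in which the motif counts once on each strand. The sequences are those of RefSeq on GRCm38.p6, printed 5′ to 3′ on the gene's strand, here the plus strand.
Pgk1, chrX:106186850-106187099: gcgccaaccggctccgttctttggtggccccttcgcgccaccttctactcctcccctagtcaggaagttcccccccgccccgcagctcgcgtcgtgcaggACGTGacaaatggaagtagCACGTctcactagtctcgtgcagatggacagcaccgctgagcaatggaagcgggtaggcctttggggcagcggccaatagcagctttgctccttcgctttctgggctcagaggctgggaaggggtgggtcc
Pgam1, chr19:41911621-41911870: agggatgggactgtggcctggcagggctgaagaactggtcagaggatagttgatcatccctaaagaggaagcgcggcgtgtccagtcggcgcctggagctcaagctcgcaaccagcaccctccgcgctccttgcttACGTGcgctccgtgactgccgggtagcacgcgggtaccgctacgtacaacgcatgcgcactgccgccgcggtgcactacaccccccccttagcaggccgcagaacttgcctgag

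The minor enolases and pyruvate kinase did not follow the major ones. Eno3, the muscle enolase (chr11:70653125-70662513), was listed at 8.19 FPKM in WT against 4.98 FPKM in ESAM-null, 1.64-fold lower (1.20 to 2.28), on about 100 and 66 reads. Eno2, the neuronal form, was at 2.06 and 2.09 FPKM. Eno1 therefore held 87.8% of the enolase FPKM in WT and 95.5% in ESAM-null, and Eno3 9.73% and 3.16%. Pklr, the pyruvate kinase of liver and red cells (chr3:89136122-89146815), was listed at 1.21 FPKM in WT, on about 30 reads, and at 0 in ESAM-null. It passed the filter through the WT library alone, so it had to differ to be counted, and 21.5% of its stretches lie in the neighbouring gene Hcn3. Pkm2 made up 99.8% of the pyruvate kinase FPKM in WT and all of it in ESAM-null. Besides the erythroid markers given above, of which Epb4.2 and Trim10 were listed at 0 in ESAM-null, the 8 hepatocyte markers summed to 42.0 in the WT and 37.1 FPKM in the ESAM-null library, 5 of them at 0 in ESAM-null and Fgb at 0 in both. Most of this sum was Trf, at 32.5 and 22.8 FPKM, and 2 of the markers went the other way, Apoa1 from 1.09 to 7.52 FPKM and Afp from 4.35 to 6.69 FPKM. Their part in the value of Pklr was not tested.

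**Figure D2:**
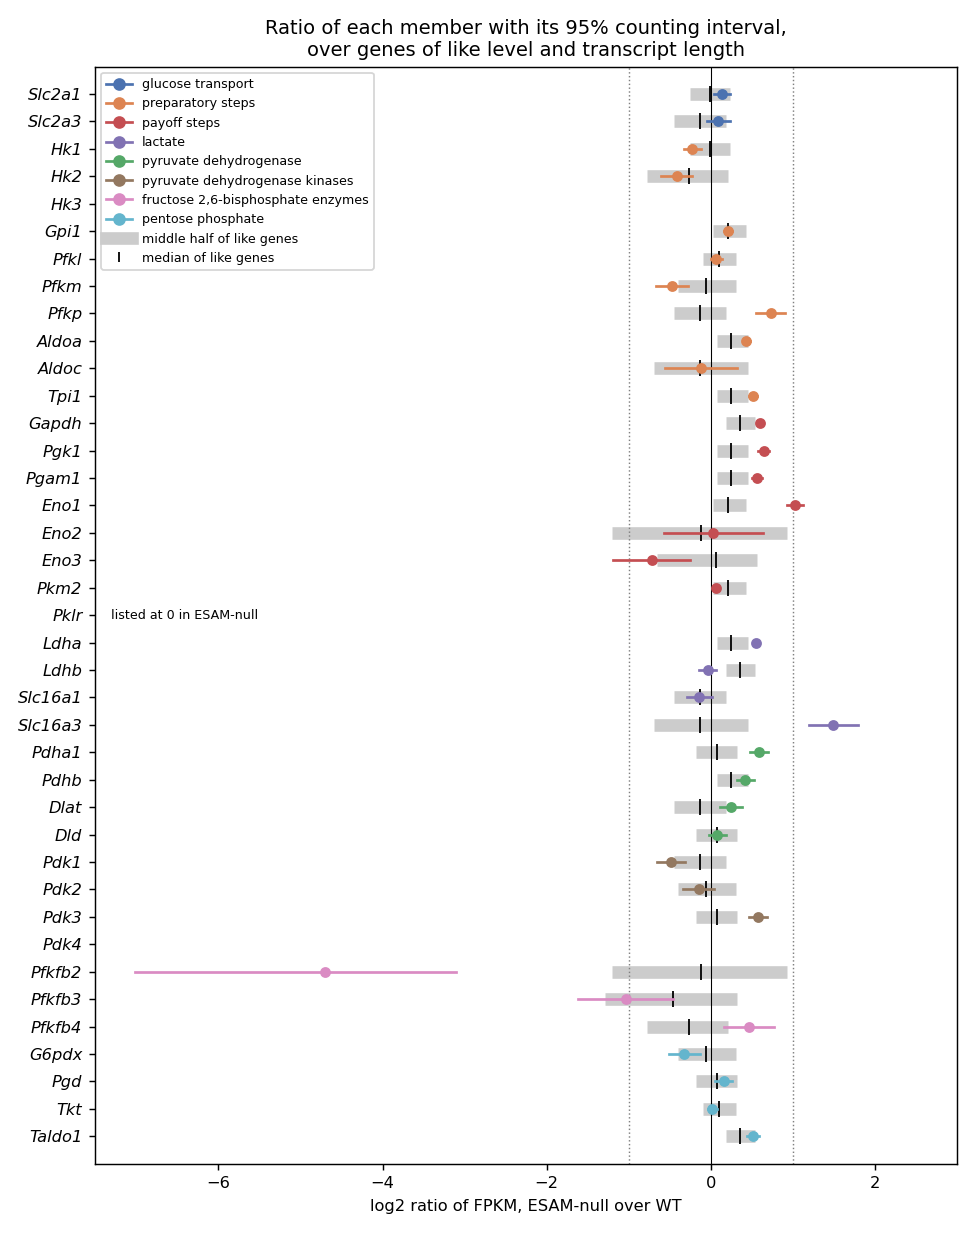
ESAM-null over WT, as the log2 ratio of FPKM, for each member past the filter, with bars for the 95% counting interval, grey bands for the interquartile range and black ticks for the median of all genes of like level and transcript length. Slc16a3, Pfkp and Eno1 are among those that stand to the right of their bands and Pfkfb2 far to the left, whereas Hk3 and Pdk4 did not pass the filter and Pklr has no ratio.

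Lactate formation and export differed by isozyme. Ldha, the form that favours lactate, was listed at 1019 FPKM in WT against 1487 FPKM in ESAM-null, a ratio of 1.46 (1.43 to 1.49). Ldhb, the form that favours pyruvate, was at 143 and 139 FPKM, a ratio of 0.974 (0.907 to 1.05). The ratio of Ldha to Ldhb was 7.13 in WT and 10.7 in ESAM-null, a 1.499-fold difference (1.39 to 1.61). Ldha shares 4.82% of its stretches with other genes.

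Slc16a3 (MCT4), the lactate exporter of highly glycolytic cells (chr11:120948484-120959000), had the highest ratio of all members. It was listed at 4.67 FPKM in WT against 13.1 FPKM in ESAM-null, 2.80-fold higher (2.28 to 3.47), on about 122 and 372 reads, and none of its stretches occurs in another gene. Slc16a1 (MCT1), which carries lactate in both directions, was at 18.4 FPKM in WT against 16.7 FPKM in ESAM-null. Slc16a3 thus made up 20.3% of this pair in WT and 43.9% in ESAM-null. Its ratio to Slc16a1 differed 3.09-fold (2.45 to 3.88). Granulocytes and monocytes also use Slc16a3. Their 9 markers summed to 595 in the WT and 599.7 FPKM in the ESAM-null library, with none of the 6 that passed the filter past 2-fold. Of the other 3, Ngp was at 0.222 and 0.102 FPKM, on about 2 reads and 1 read, and Elane and Ctsg were listed at 0 in both libraries.

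The motif sites of these 2 genes are shown because Ldha and Slc16a3 each had a higher ratio of ESAM-null to WT than the other isozyme. The promoter table lists 2 starts for Ldha. The window of the first, which lies inside the gene downstream of an earlier start, holds 2 E boxes and another CACGT, and that of the second holds no match. Slc16a3 has 2 copies of ACGTG in its last 30 bases before a start that likewise follows an earlier one. Of the other isozymes, Slc16a1 also holds an E box, at -200 to -195 from its start, whereas Ldhb holds no match. Among the isozymes with the highest ratio in the other families, Hk1, Pfkp, Eno1 and Pfkfb4 hold no match, whereas Slc2a1, Aldoa, Pkm2 and Pdk3 do.
Ldha, chr7:46845554-46845803, plus strand: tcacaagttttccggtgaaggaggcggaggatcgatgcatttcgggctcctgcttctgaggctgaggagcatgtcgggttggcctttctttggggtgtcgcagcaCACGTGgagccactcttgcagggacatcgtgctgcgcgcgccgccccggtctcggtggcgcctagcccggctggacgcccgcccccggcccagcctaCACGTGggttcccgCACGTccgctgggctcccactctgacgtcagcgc
Slc16a3, chr11:120949030-120949054, plus strand: ggcagcggtgACGTGcgcgggggac
Slc16a3, chr11:120949043-120949066, plus strand: tgcgcgggggACGTGccgcgcgac

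**Figure D3:**
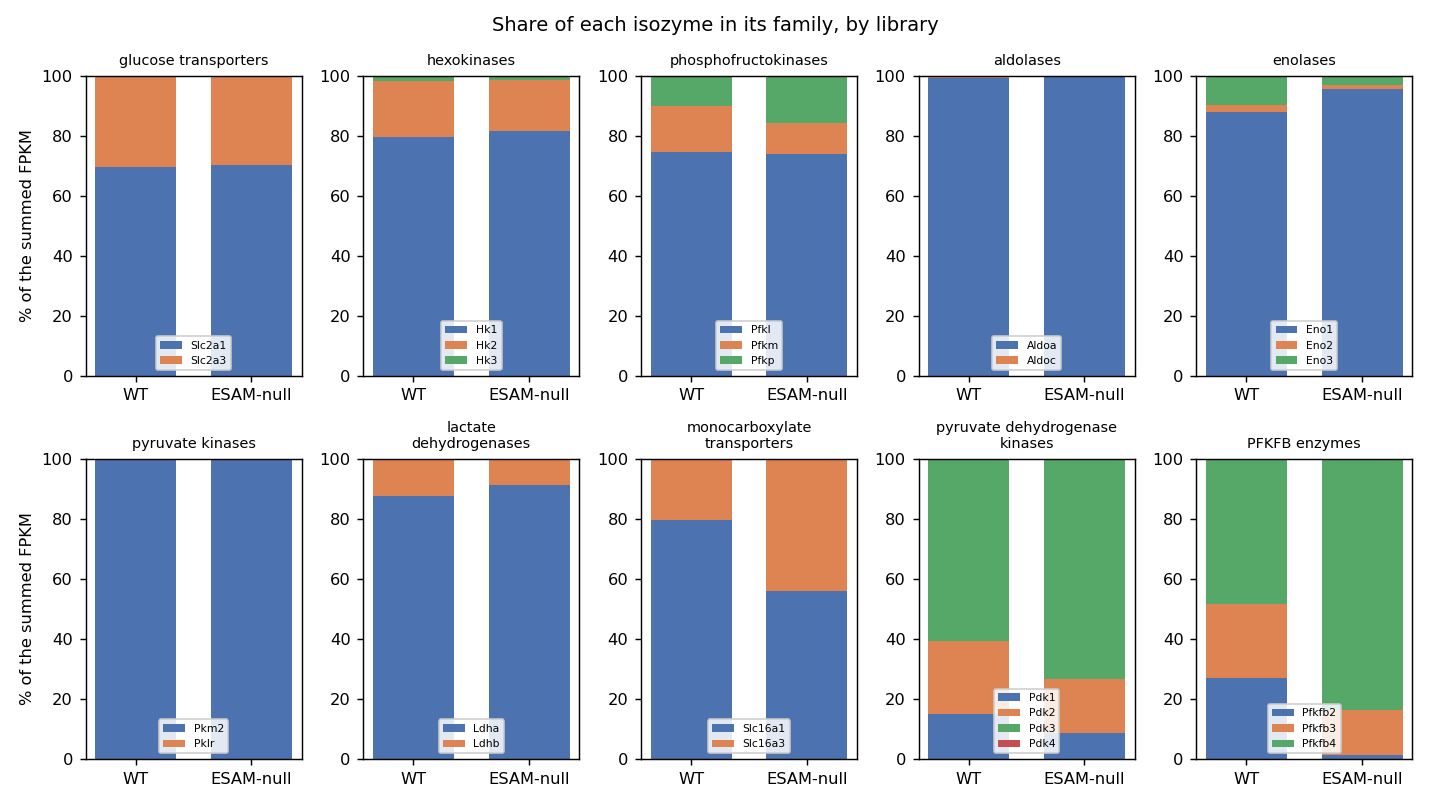
Share of each isozyme in the summed FPKM of its family (percent, bars from 0 to 100) in the WT and ESAM-null libraries. The split between Slc16a1 and Slc16a3 and that among Pfkfb2, Pfkfb3 and Pfkfb4 differ most between the libraries, whereas the glucose transporters, hexokinases and aldolases keep theirs.

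The 4 members that encode subunits of the pyruvate dehydrogenase complex had ratios above 1, and none reached 1.5-fold. Pdha1, the catalytic subunit that the kinases act on, was listed at 46.1 FPKM in WT against 69.1 FPKM in ESAM-null, a ratio of 1.499 that lies just under the threshold (1.39 to 1.61). Pdhb, its partner, went from 108 to 144 FPKM, a ratio of 1.34. Dlat, the acetyl transferase, was at 21.7 and 25.7 FPKM, and Dld, the dehydrogenase that other complexes share, was at 68.5 and 72.2 FPKM. Their median log2 ratio was 0.33. Pdhx, a further subunit, which binds Dld and is not a member, went the other way, from 15.6 to 12.1 FPKM, a ratio of 0.774 (0.659 to 0.910).

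The kinases that shut this complex off differed among themselves. Pdk3 was the main form, at 58.5 in the WT and 87.1 FPKM in the ESAM-null library, a ratio of 1.49 (1.38 to 1.61). Pdk1, a known target of hypoxia-inducible factors, went from 14.3 to 10.2 FPKM, a ratio of 0.715 (0.636 to 0.803). Pdk2 was at 23.7 and 21.3 FPKM. Pdk4, the kinase of the fasted state, was listed at 0.0653 and 0.0601 FPKM, on about 2 reads in each library. Pdk3 made up 60.6% of the kinase FPKM in WT and 73.3% in ESAM-null, while Pdk1 made up 14.8% and 8.63%. The ratio of Pdk3 to Pdk1 differed 2.08-fold (1.81 to 2.39).

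Pgk1, Pdha1, Pdk3 and G6pdx lie on the X chromosome. Transcripts of Xist and of Y-linked genes were present in both libraries. Xist was listed at 5.51 FPKM in WT against 8.34 FPKM in ESAM-null, and of the 4 Y-linked genes, Ddx3y was at 14.3 and 7.83, Eif2s3y at 32.8 and 20.8, Kdm5d at 5.42 and 4.13 and Uty at 2.83 and 4.64 FPKM. The part of the sexes in the values of the 4 X-linked members was not tested.

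The PFKFB enzymes, which make or remove the sugar phosphate that activates phosphofructokinase, had the lowest sum of the families and held 2 of the 3 members that were 2-fold lower. Pfkfb2, the heart form (chr1:130689043-130729253), was listed at 2.86 in the WT and 0.110 FPKM in the ESAM-null library. These values rest on about 72 reads and 3 reads, a ratio of 0.0385 with a counting interval of 0.00772 to 0.117. Of the 75-base stretches of Pfkfb2, 23.5% also occur in other genes, most of them in Gm29427 (21.9%). Pfkfb3, the inducible form (chr2:11471430-11554071), was listed at 2.60 FPKM in WT against 1.27 FPKM in ESAM-null, 2.04-fold lower (1.38 to 3.06), on about 77 and 41 reads. Pfkfb4 went the other way, from 5.11 to 7.01 FPKM, a ratio of 1.37 (1.12 to 1.70). Their summed FPKM was 10.6 in WT and 8.40 in ESAM-null. Pfkfb4 made up 48.3% of this in WT and 83.6% in ESAM-null, and Pfkfb2 27.1% and 1.31%. Pfkfb1, a PFKFB gene that is not a member, was at 3.71 and 3.16 FPKM, and with it in the sum Pfkfb4 made up 35.8% in WT and 60.7% in ESAM-null. Pfkfb2 passed the filter through WT alone, and at a mean of 1 to 3 FPKM 29.96% of all genes were at least 2-fold lower and 19.7% at least 2-fold higher.

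All sites of these lower members are shown beside those of Slc16a3, since the motif occurs in members of either direction. Each gene holds 1 E box and, before another of its starts, 1 ACGTG outside an E box, the kind found in Slc16a3. Both genes lie on the minus strand and are printed in the direction of the gene. In the E boxes, CACGT is in capitals and the g after it completes the E box.
Pfkfb2, chr1:130715829-130715853: ccaagcgcccCACGTgactcgcccc
Pfkfb2, chr1:130714734-130714758: gcagctgtatACGTGaggagtcagg
Pfkfb3, chr2:11502129-11502153: cccttctctcCACGTgaaagggggc
Pfkfb3, chr2:11553975-11553999: ccgcgccgtgACGTGccaagctgtg

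The 4 members of the pentose phosphate pathway lay within 1.5-fold. G6pdx, which commits glucose phosphate to the pathway, was listed at 21.9 in the WT and 17.5 FPKM in the ESAM-null library, a ratio of 0.799 (0.701 to 0.910). Pgd, the next dehydrogenase, was at 68.3 and 76.0 FPKM. Tkt, the transketolase that links the pathway back to glycolysis, was at 159 and 161 FPKM, a ratio of 1.01 (0.971 to 1.05). Taldo1, the transaldolase that works beside it, was listed at 238 FPKM in WT against 339 FPKM in ESAM-null, a ratio of 1.43 (1.35 to 1.503).

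Within 9 of the 10 isozyme families, the 15 pairs of isozymes that had at least 1 FPKM in both libraries were compared, which left out Hk3, Pklr, Pdk4 and Pfkfb2. The counting interval left out equality for 13 of the 15 pairs, the exceptions being Slc2a1 with Slc2a3 and Hk1 with Hk2. Such intervals leave out every source of spread between libraries but counting, so they do not show that the genotypes differ.

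Level and length went with the ratio over all genes, and the abundant members have to be read beside this. Genes with a mean of at least 100 FPKM, which were 11.04% of genes but 37.8% of the members, had a median log2 ratio of 0.36, and 23.7% of them were at least 1.5-fold higher while 2.63% were lower. The 14 members in this range had a median of 0.47, 13 of them were above 0 (all but Ldhb) and 3 were at least 1.5-fold higher. Within this range, the median fell from 0.55 in genes with transcripts under 1000 bases to 0.10 at 3000 bases or more. Each member was therefore set beside genes of like level and length. Of the 37 members, 12 lay above the upper quartile of such genes and 5 below the lower quartile, and 21 lay above the median. Of the 14 abundant members, 6 lay above the upper quartile, namely Tpi1, Gapdh, Pgk1, Pgam1, Eno1 and Ldha, and Ldhb lay below the lower one. Gapdh, Pgk1, Pgam1 and Eno1 are the members that share over 30% of their stretches with other genes, so their values are less certain. The other 10 abundant members had a median log2 ratio of 0.31, under the 0.36 of all genes in this range. Only Tpi1 and Ldha among these 10 lay above the upper quartile. Relative to the median of such genes, Slc16a3 was higher by 1.62 on the log2 scale, Pfkp by 0.86 and Eno1 by 0.82, whereas Gapdh was higher by 0.24.

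**Figure D4:**
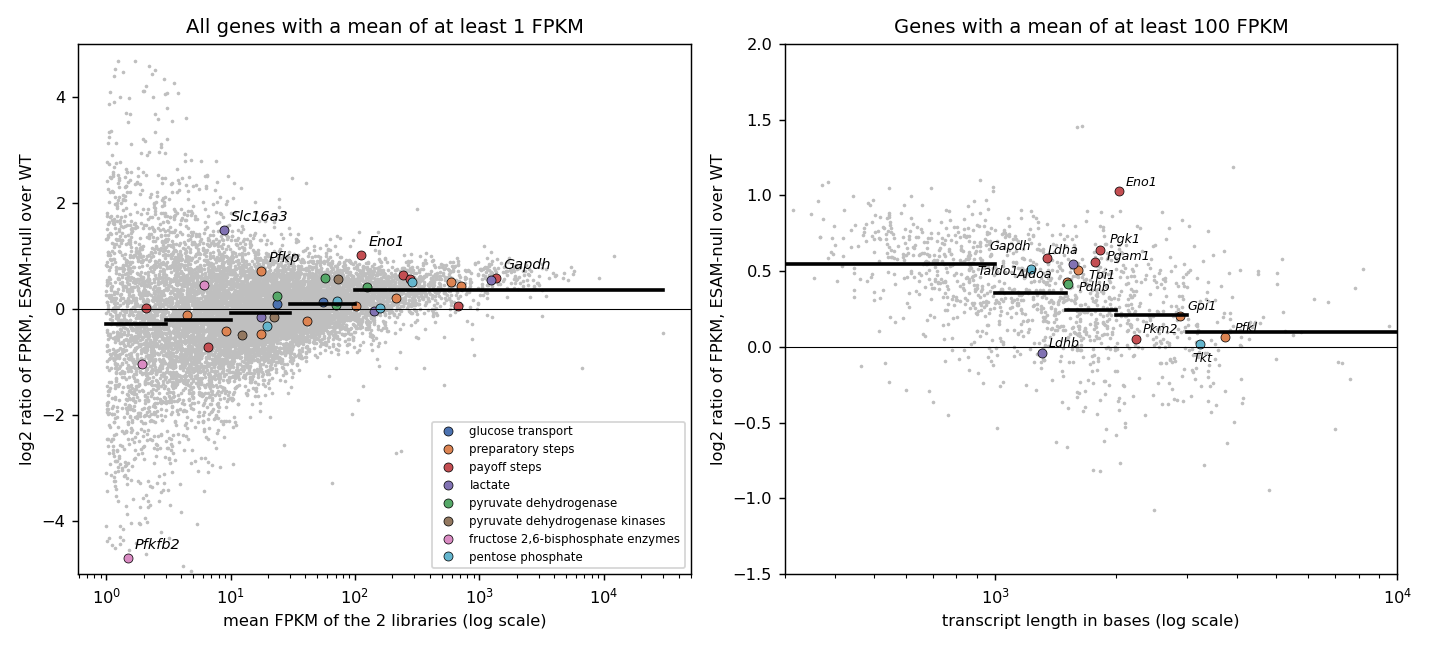
ESAM-null over WT, as the log2 ratio of FPKM, against mean FPKM for all genes with a mean of at least 1 FPKM (left) and against transcript length for genes with a mean of at least 100 FPKM (right), both on log axes, with grey points for genes above 0 in both libraries, coloured points for members and black lines for the median of each range. The medians climb with level to 0.36 and fall with length from 0.55 to 0.10, and Eno1 and Slc16a3 stand clear of them. Genes listed at 0 and a few outside the range of the axes are not drawn.

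The motif ACGTG was searched on both strands of the 250 bases before each annotated start. It was found for 16 of the 38 members in the promoter table (42.1%), for 25.6% of the 9581 genes in that table with at least 1 FPKM, and for 18.5% of all 27025 genes in it. The E box CACGTG, which holds the motif on each strand, was found for 6 of 38 members (15.8%), 10.1% of the genes with at least 1 FPKM and 6.86% of all genes. Members often have several starts, and counted by start the motif was found in 20 of 56 (35.7%), beside 16.6% of all starts. Starts of genes with at least 1 FPKM were not counted apart, although 36 of the 38 members were such genes. Counted by gene, these held the motif more often than all genes, so all starts are an unlike background for the members. It was found among members of either direction, namely for 2 of the 5 members at least 1.5-fold higher (Pgk1 and Slc16a3), 2 of the 4 lower ones (Pfkfb2 and Pfkfb3) and 11 of the other 27. Slc2a3 was not in the table.

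**Figure D5:**
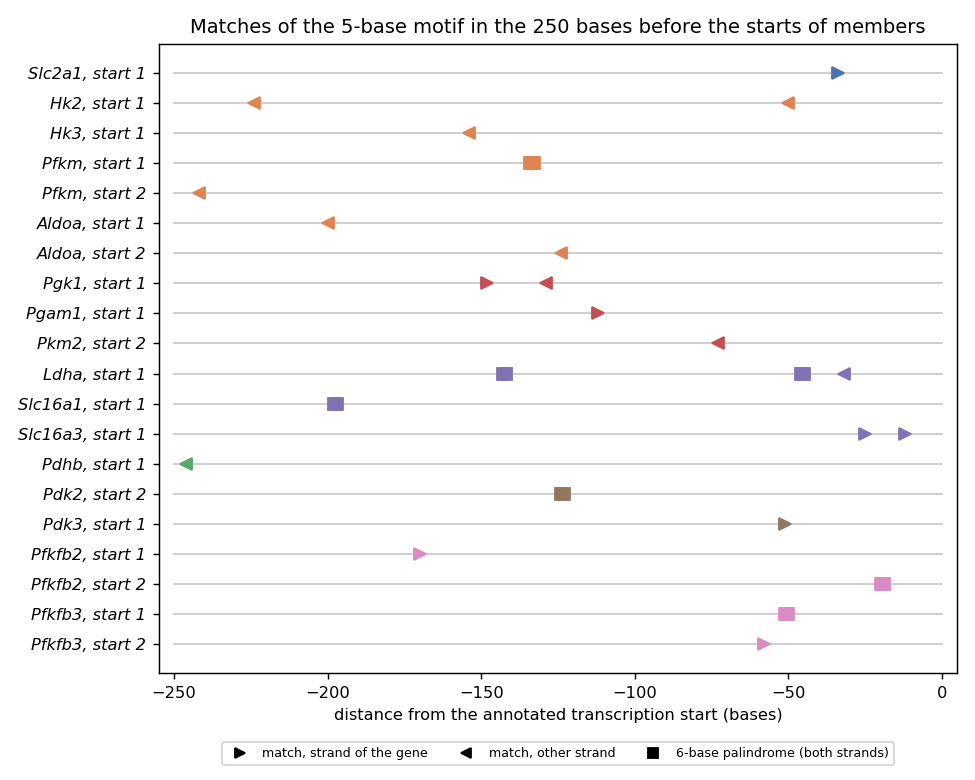
Position of each match of the motif in the 250 bases before annotated starts of members (distance in bases from the start), with triangles for single matches by strand, squares for E boxes and colours for roles as in the plot of levels. Ldha has the most matches, and members that were higher (Pgk1, Slc16a3) and lower (Pfkfb2, Pfkfb3) in ESAM-null both appear.

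The lists of other glycolysis, other pyruvate and lactate, and other pentose phosphate genes each held 2 genes past 2-fold. The counts below stand beside 12.8% of all genes at least 2-fold lower and 7.42% at least 2-fold higher. The share of lower genes lay above this background in the pyruvate and lactate list, and that of higher genes in the pentose phosphate list. Each of these shares rests on 2 genes, and the other shares lay below the background. Of 21 other genes of glycolysis and glucose handling past the filter, 2 were at least 2-fold lower and none was higher. Pcx, which carboxylates pyruvate, was listed at 2.73 FPKM in WT and 0 in ESAM-null, and Fbp2, a bisphosphatase of gluconeogenesis, at 1.17 FPKM and 0. Both passed the filter through the WT library alone, so they had to be lower in ESAM-null to be counted. Of 11 other pyruvate and lactate genes, 2 were lower and none higher. Pdpr, which regulates the phosphatase that reactivates pyruvate dehydrogenase, went from 1.81 to 0.145 FPKM on about 80 and 7 reads, and Gpt2, an alanine transaminase of mitochondria, went from 5.29 to 1.47 FPKM. Pdpr likewise passed the filter through WT alone. The carrier of pyruvate into mitochondria, listed under the older symbols Brp44 (Mpc2) and Brp44l (Mpc1), was at 160.0 and 192 FPKM for Brp44 and at 88.9 and 128 FPKM for Brp44l. Of 10 other pentose phosphate genes, none was 2-fold lower and 2 were higher, and Rpia, which makes ribose phosphate, was 1.88-fold higher (1.29 to 2.71) at 2.98 and 5.61 FPKM. Rbks, a ribose kinase, went from 8.43 to 22.9 FPKM (2.72-fold, 2.04 to 3.62), and Shpk, a kinase of sedoheptulose, went from 1.24 to 6.40 FPKM (5.18-fold, 3.52 to 7.96). These lists lay at medians of -0.06, 0.04 and 0.13 on the log2 scale.

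Of the 20 TCA cycle genes, none was past 2-fold and 2, Idh1 and Fh1, were at least 1.5-fold higher, where all genes gave 17.4%. The median log2 ratio of the TCA cycle genes was 0.10. Of 17 regulators of glycolytic genes past the filter, 2 were at least 2-fold lower and none was higher, where all genes gave 12.8% and 7.42%. Max, the partner of Myc, was listed at 35.5 in the WT and 16.7 FPKM in the ESAM-null library, and Mlxip, a glucose-sensing factor, at 44.8 and 16.1 FPKM. The median of this list was -0.43. Beside 21.8% of all genes, 6 of its genes were at least 1.5-fold lower. Among these were Arnt (the partner of Hif1a, 12.4 and 8.15 FPKM, 1.52-fold lower), and Egln2 and Egln3, oxygen-dependent enzymes that mark Hif1a for breakdown (1.66-fold and 1.52-fold lower). Hif1a, at 18.1 and 16.7 FPKM, and Myc, at 85.2 and 92.7 FPKM, were looked at after the values were seen and lay within 1.5-fold. Epas1, an alternative partner of Arnt, was at 0.185 and 0.644 FPKM and did not pass the filter. Bpgm, the red cell enzyme that makes the regulator of oxygen binding, was also chosen after its values were seen. It was listed at 15.9 FPKM in WT against 8.49 FPKM in ESAM-null, beside the lower sum of the erythroid markers, which was mostly Hba-a2. The part of erythroid cells in the value of Bpgm was not tested.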

How the data were processed

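RNA-seq libraries of E14.5 FL LSK CD48- cells, 1 WT and 1 ESAM-null, were analysed. The authors deposited FPKM for each gene symbol, from single-end reads of 75 bp made with a low-input cDNA kit. The submitters' processing notes list Cuffnorm 2.2.1, SAMtools 0.1.19, Bowtie2 2.2.3 and TopHat2 2.0.13 on mm10. The annotation, the normalization setting and the treatment of reads that fit several places were not given in the sources used here.

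For every gene, the deposited FPKM of ESAM-null was divided by that of WT, and genes that reached 1 FPKM in either library were counted past 2-fold and 1.5-fold. Approximate reads came from FPKM, the length of transcripts (RefSeq and GENCODE M21 for GRCm38, which is mm10; 98.1% of genes and all 39 members) and the value of 1 read, with fragments of 200 bp (SD 80 bp) assumed. The value of 1 read in ESAM-null was 0.919 of that in WT, a ratio found at 143 genes. Low values fell within 0.05 of whole reads for 58.2% (WT) and 61.3% (ESAM-null) of the genes checked, so these numbers are approximate. Intervals of ratios are exact (Clopper-Pearson, 95%), and those of isozyme pairs are from the variance of log counts. The steps were checked on simulated data.

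Named genes were members past 1.5-fold, at 100 FPKM or more, listed at 0 or leading their family, up to 4 genes per other list past 2-fold, and Esam. In addition, the remaining members were given values. The members and lists were chosen with earlier results of these data known. Centring by level and length, the search for shared stretches of 75 bases and the motif search were added after the data were seen. Alternatives were other filters, added constants, scalings, and leaving out each member. No other per-sample columns were present. Software was matplotlib 3.10.9, scipy 1.17.1, pandas 2.3.3, numpy 2.4.6 and Python 3.11.15.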

Additional observations from a re-analysis of the deposited data

How the results depend on the processing

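Counts of lower members depended on the filter. With at least 5 FPKM in a library, 0 members were at least 2-fold lower (all genes 6.99%) and 1 at least 1.5-fold lower (15.8%), and with at least 1 FPKM in both libraries the counts were 1 (7.13%) and 2 (16.8%). Counts of higher members stayed at 2 and 5 under these filters, but the shares of all genes fell. They were 3.75% and 14.8% with at least 5 FPKM in a library, and 4.09% and 15.0% with at least 1 FPKM in both libraries. Rescaling each library to a total of 1000000, which moved every log2 ratio by -0.28, gave 1 member at least 2-fold higher (Slc16a3), 8 at least 1.5-fold lower, 2 at least 1.5-fold higher (Eno1 and Slc16a3) and a median log2 ratio of -0.19. Centring on genes of like level, or of like level and length, left 1 member at least 2-fold higher, again Slc16a3. At 1.5-fold, either centring took Gapdh and Pgk1 out of the higher members and put Pfkfb4 in. Of the lower members, centring on level took out Eno3, and centring on level and length took out Pfkfb3. Gapdh lay under 1.5-fold with median and trimmed mean scaling, and Pfkfb3 under 2-fold with 0.1 or 1 FPKM added. The other counts, though not all their genes, stayed within 1.5 times. Without each member in turn, the median ran from 0.083 to 0.11. Isozyme shares moved by at least 1 point in 2 of 52 cases with 0.1 FPKM added. No paired analysis was possible because each genotype has 1 library. Depth limits members with few reads, such as Pdk4 (about 2 reads in each library), Hk3, Pklr and Pfkfb2.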
